A study of Homo sapiens with 12 samples.

Results

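The 32 genes examined here encode the enzymes of cholesterol synthesis, the sterol-sensing regulators of those enzymes, and proteins that carry, esterify or export cholesterol. They were chosen by gene symbol from a list written from knowledge of the pathway, and they stand among 23533 genes present in either of the 2 count tables. All 32 were in the MEC1 table and 31 in the JVM2 table, which does not hold *ABCA1*. Total RNA of MEC1 and JVM2, established human lines of neoplastic B cells, was sequenced in 3 biological replicates of each of 4 populations. MEC1-2B17 and JVM2-2B17 cells carried the coding sequence of *UGT2B17*, a glucuronosyltransferase that conjugates steroids, in the pcDNA6 vector and were grown with blasticidin. JVM2-CTRL cells carried the empty pcDNA6 vector and were also grown with blasticidin. MEC1-CTRL cells, per the labels, had *UGT2B17* stably repressed by an shRNA and, per the methods of the study, were grown with puromycin. In MEC1 the level of *UGT2B17*, the construct and the antibiotic therefore cannot be told apart, whereas the JVM2 populations shared vector and antibiotic. The number of independent transfections behind a population is not given in the sources used here, so the *P*-values measure the spread between cultures of 1 population. The question was how each step of the pathway differed between 2B17 and CTRL cells of each line.

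Cells make cholesterol from acetyl-CoA in a long series of steps, in which the mevalonate enzymes build isoprenoid units, a pair of synthases joins these into squalene, and the later enzymes oxidize, cyclize and trim squalene to cholesterol. Transcription of these enzymes is raised by the sterol regulatory element-binding proteins (SREBPs), which the escort protein *SCAP* carries out of the endoplasmic reticulum when sterol is low and which the INSIG proteins hold back when sterol is high. In the opposite branch, the liver X receptors (LXRs) are activated by oxidized sterols and raise the transporters *ABCA1* and *ABCG1*, which move cholesterol out of the cell, and *MYLIP*, a ubiquitin ligase that limits lipoprotein uptake.

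A promoter entry in RefSeq on GRCh38.p14 was found for 28 of the 32 genes, and *ACAT2*, *FDFT1*, *SQLE* and *ABCG1* had none in the table used. Within 250 bases before an annotated start, 13 of the 15 enzymes with an entry held the letters CCAAT on either strand, the motif bound by the factor NF-Y, which is known to act beside SREBPs. Among all 27305 genes with an entry, 36.997% held it, and among the 28 genes examined here 20 did. The letters CCAAT are short, and a match describes the window and not a bound site. All 13 enzymes with the letters passed the edgeR test described below as lower in MEC1-2B17 cells, as did 21.6% of all genes. In JVM2, where 15.3% of all genes were lower, *HMGCS1*, *MVD*, *LSS*, *NSDHL*, *EBP* and *DHCR7* were lower, while *TM7SF2* was higher and *MVK*, *IDI1*, *FDPS*, *MSMO1*, *HSD17B7* and *SC5D* did not pass the test. Of the enzymes without the letters, *CYP51A1* was lower in MEC1 and *PMVK* passed in neither line. Over all 18 enzymes, with or without the letters or an entry, 17 were lower in MEC1 and 8 in JVM2. Among the other genes with the letters, *SREBF2* and *STARD4* were lower in MEC1, *NR1H3* was higher, and *INSIG1*, *NPC2*, *SOAT1* and *MYLIP* did not pass. In JVM2 *SREBF2*, *INSIG1*, *NPC2* and *SOAT1* were lower, *MYLIP* was higher, and *STARD4* and *NR1H3* did not pass. The part of the letters in these changes was not tested. The stretches below show 5 of the enzymes that were lower in both lines, with *PMVK* as an example without the letters. The stretch of *LSS* is not shown. Each 120-base stretch is given in the direction of transcription with CCAAT, or ATTGG where it lies on the other strand, in capitals, and none holds an exon base of GENCODE.
HMGCS1: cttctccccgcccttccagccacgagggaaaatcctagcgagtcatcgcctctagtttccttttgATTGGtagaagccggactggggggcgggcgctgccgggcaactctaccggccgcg
MVD: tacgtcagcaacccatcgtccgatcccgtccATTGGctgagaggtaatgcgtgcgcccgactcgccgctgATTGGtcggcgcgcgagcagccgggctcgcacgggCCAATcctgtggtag
NSDHL: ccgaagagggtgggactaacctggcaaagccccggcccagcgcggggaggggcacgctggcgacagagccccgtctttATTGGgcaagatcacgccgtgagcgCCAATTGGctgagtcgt
EBP: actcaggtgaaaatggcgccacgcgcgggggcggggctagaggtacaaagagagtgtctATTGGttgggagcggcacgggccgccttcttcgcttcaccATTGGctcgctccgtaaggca
DHCR7: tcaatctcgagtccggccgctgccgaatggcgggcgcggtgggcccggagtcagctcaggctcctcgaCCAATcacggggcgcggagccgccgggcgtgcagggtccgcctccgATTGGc
PMVK: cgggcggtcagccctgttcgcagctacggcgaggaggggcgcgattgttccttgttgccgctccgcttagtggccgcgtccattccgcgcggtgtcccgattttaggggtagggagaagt
These stretches lie at chr5:43313513-43313632 on the minus strand for *HMGCS1*, chr16:88663162-88663281 on the minus strand for *MVD*, and chrX:152830847-152830966 on the plus strand for *NSDHL*. Those of *EBP*, *DHCR7* and *PMVK* lie at chrX:48521679-48521798 (plus strand), chr11:71448436-71448555 (minus strand) and chr1:154936720-154936839 (minus strand). The *DHCR7* stretch and the RefSeq start that it precedes lie inside the gene as GENCODE draws it. The other stretches lie just upstream of their genes. Those of *HMGCS1*, *MVD*, *NSDHL* and *EBP* end 101, 71, 97 and 10 bases before a RefSeq start, which lies inside the gene so drawn. The capitals occur 3 times in the *MVD* and *NSDHL* stretches, where in *NSDHL* the last pair overlap on opposite strands, 2 times in *EBP* and *DHCR7*, and 1 time in *HMGCS1*. The letters TCACNCCAC, a form of the sterol regulatory element, were found on either strand in only *SREBF2* of the 28 genes, at chr22:41832961-41832990 on the plus strand, and in 1.088% of all genes with an entry. The letters TCACGTGA, an E-box form, were found in only *INSIG1*, at chr7:155297811-155297840 on the plus strand within the gene as GENCODE draws it, and in 1.036% of all such genes. Both sites are shown in capitals within 30 bases because their genes belong to the regulators described below.
SREBF2: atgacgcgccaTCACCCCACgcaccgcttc
INSIG1: gccgggcaggcTCACGTGAtgcgggccccg

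The MEC1 libraries held 31762649 to 37744991 counts and the JVM2 libraries 8809179 to 11231330, so the 31 genes in both tables rested on fewer counts in JVM2, down to 17 counts for *NR1H3* in a JVM2-2B17 library. *UGT2B17* itself had 346 to 447 counts in MEC1-CTRL and 637 to 766 in MEC1-2B17 libraries (log2 fold change 0.94 ± 0.07 SE, adjusted *P* = 2e-09), and 258 to 299 against 315 to 402 in JVM2 (0.48 ± 0.11, adjusted *P* = 0.0048). Per 1000000 counts of the scaled library, *UGT2B17* stood at 10.4 to 11.8 in MEC1-CTRL and 20.1 to 22.7 in MEC1-2B17. It stood at 26.2 to 29.8 in JVM2-CTRL and 35.3 to 45.3 in JVM2-2B17, so that JVM2-CTRL lay above MEC1-2B17. All 7 B-cell markers examined were in both tables, with summed levels of 2294 to 2506 CPM (counts per 1000000 counts of the scaled library) in MEC1 and 1355 to 1597 in JVM2, against at most 0.355 CPM for the 5 T-cell markers, of which 3 were in the MEC1 table and none in the JVM2 table. The summed level of 5 myeloid markers was 2.35 to 2.92 CPM in MEC1-CTRL and 4.74 to 5.30 in MEC1-2B17, and 5.41 to 6.58 in JVM2-CTRL and 11.1 to 13.8 in JVM2-2B17, with *ITGAM* the highest of them in each population, while CD14 had at most 5 counts in any MEC1 library and was not in the JVM2 table. The summed level of 4 epithelial markers was 26.4 to 29.95 CPM in MEC1-CTRL and 45.8 to 48.9 in MEC1-2B17, mostly CDH1, and 18.4 to 22.5 in JVM2, mostly KRT18. The part of these markers in the results was not tested. Replicate 3 of MEC1-CTRL and replicate 2 of JVM2-2B17 stood apart from the other libraries of their populations, with a mean chi-square per gene of 6.86 to 8.62 against them, where other pairs of replicates had 2.25 to 5.4. Each library was left out in turn from the fits, these included.

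Transcripts of cholesterol synthesis were lower in 2B17 cells of both lines, in nearly all enzymes in MEC1 and in fewer in JVM2. In MEC1, 23 of the 32 genes were lower, 1 was higher and 8 did not pass the test, whereas among all genes 41.7% passed, 21.6% lower and 20.0% higher. In JVM2, 14 of 31 were lower, 3 were higher and 14 did not pass, whereas among all genes 29.3% passed, 15.3% lower and 14.1% higher. A gene was taken as changed when its *P*-value from the edgeR quasi-likelihood test, adjusted over every gene tested in its line, was below 0.05, and all adjusted *P*-values given here are of that kind unless DESeq2 is named. The median log2 fold change of the 32 genes was -0.26 in MEC1 and that of the 31 was -0.21 in JVM2, where the medians over all genes tested were 0.0026 and 0.0001. Among the 31 with a test in each line, 10 were lower in both, none was higher in both and 2 moved in opposite directions, where 4.48%, 3.90% and 7.43% of the 12243 genes tested in both lines did so. The 10 were *HMGCS1*, *MVD*, *FDFT1*, *SQLE*, *LSS*, *NSDHL*, *EBP*, *DHCR7*, *SREBF1* and *SREBF2*, and the 2 were *TM7SF2* and *ABCG1*. Without replicate 2 of JVM2-2B17, 16 genes were lower and 3 higher in JVM2, and 10 of the 18 enzymes were lower, where 17.8% of all genes were lower. Bulk RNA of a culture cannot tell less RNA per cell from fewer cells that hold it. By DESeq2 20 genes were lower and 1 was higher in MEC1, where 13.3% of all genes in that unfiltered fit were lower. In JVM2 12 were lower and only *ABCG1* was higher by DESeq2, where 9.52% of all genes were lower. The genes lower in both lines were 7 by DESeq2 and also 7 when both tools were required.

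**Figure D1:**
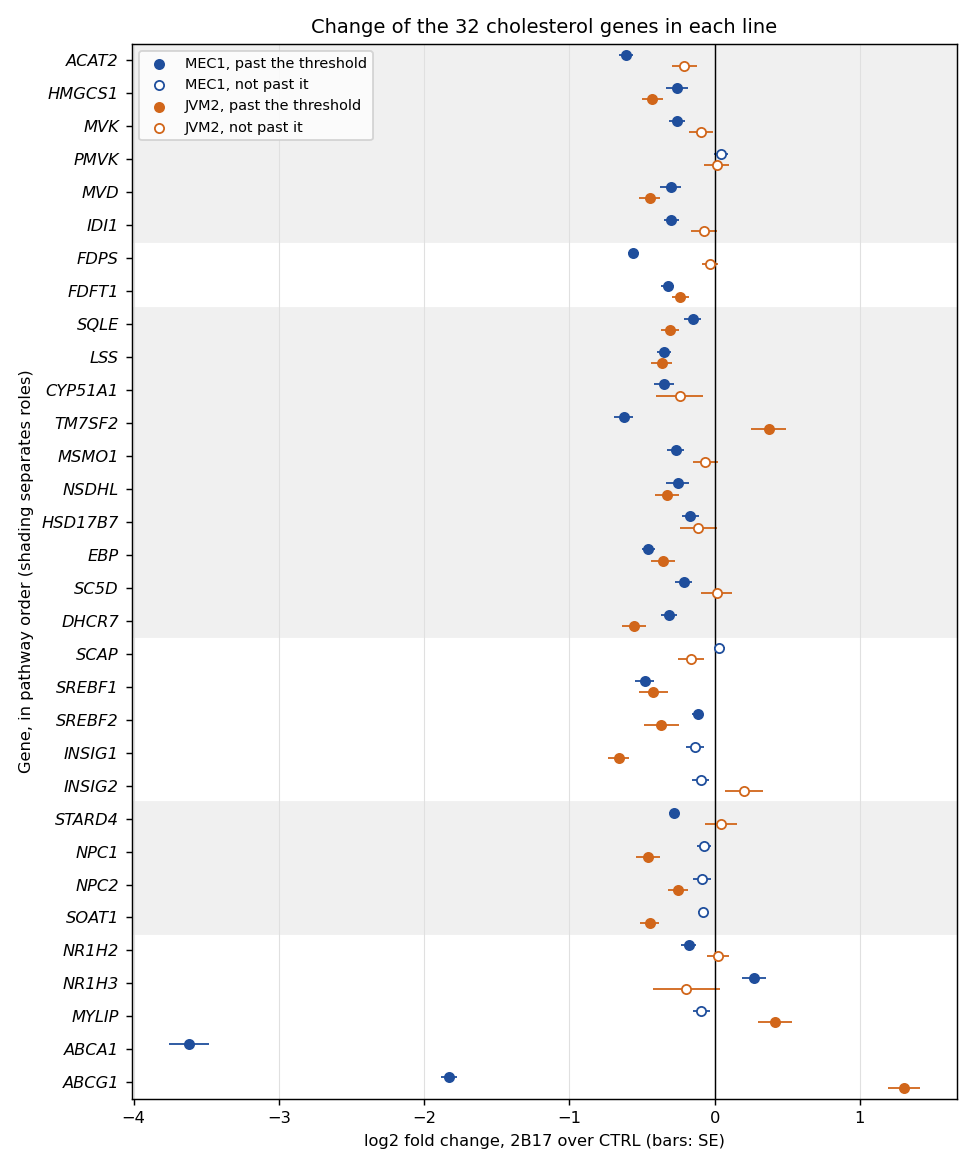
Log2 fold change of 2B17 over CTRL cells (horizontal axis, bars show the standard error) for the 32 genes in pathway order from top to bottom, with MEC1 in blue and JVM2 in orange. Filled points passed the test and open points did not; nearly all enzymes lie left of 0 in MEC1, *ABCA1* lies at -3.62 in MEC1, and *ABCG1* lies at -1.83 in MEC1 and 1.30 in JVM2.

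Of the 18 synthesis enzymes, 17 were lower in MEC1-2B17 cells, all but *PMVK*, with a median log2 fold change of -0.30. By DESeq2 14 of them were lower, where 13.3% of all genes in that unfiltered fit were. When both tools were required 14 were also lower, where 17.5% of the genes kept by the edgeR filter were. The 2 shares are of different sets of genes. In JVM2-2B17 cells 8 were lower, *TM7SF2* was higher and 9 did not pass the test, with a median of -0.22. These were small changes, from 10.1% to 35.2% below the CTRL mean among the 17 enzymes lower in MEC1 and from 15.1% to 32.1% among the 8 lower in JVM2. All 3 MEC1-2B17 libraries lay below all 3 MEC1-CTRL libraries in 15 enzymes, where 25.9% of all genes tested were so placed, and the 2B17 libraries lay below in 10 enzymes in JVM2, where 23.6% were. The reverse placing, with all 2B17 libraries above, was seen in no enzyme in MEC1 and in 1 in JVM2, against 24.3% and 21.6% of all genes.

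The mevalonate steps were lower in 5 of 6 genes in MEC1 and in 2 of 6 in JVM2. *ACAT2*, which joins acetyl-CoA units at the entry to the pathway, stood at 72.4, 72.0 and 78.3 CPM in MEC1-CTRL and at 52.2, 46.6 and 46.8 in MEC1-2B17 cells. The populations did not overlap, and *ACAT2* fell by 34.6% (log2 fold change -0.61 ± 0.05, adjusted *P* = 7.8e-09). In JVM2 it stood at 60.7, 58.9 and 61.6 CPM in CTRL and 55.3, 56.2 and 45.0 in 2B17 cells, with no overlap but with replicate 3 of JVM2-2B17 far below the others (-0.21 ± 0.08, adjusted *P* = 0.082). *HMGCS1*, the synthase of HMG-CoA, was lower in both lines. Its levels in JVM2 were 55.1, 56.3 and 56.1 CPM in CTRL and 38.2, 43.0 and 43.4 in 2B17 cells, which did not overlap (-0.43 ± 0.07, adjusted *P* = 0.00074). In MEC1 its levels were 112, 124 and 154 CPM in CTRL and 105, 114 and 106 in 2B17 cells, so that the populations overlapped (-0.26 ± 0.07, adjusted *P* = 0.0078), and the call was lost with DESeq2 (adjusted *P* = 0.17) and without replicate 3 of MEC1-2B17 (adjusted *P* = 0.051). Without replicate 3 of MEC1-CTRL the MEC1 log2 fold change of *HMGCS1* was -0.12 (adjusted *P* = 0.041).

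*MVD*, the decarboxylase that makes the isoprenoid unit, was lower in both lines. Its levels were 46.7, 44.5 and 46.2 CPM in JVM2-CTRL and 34.2, 33.3 and 33.1 in JVM2-2B17 cells, 26.7% lower and far apart (-0.45 ± 0.07, adjusted *P* = 0.00043). The MEC1 levels were 44.1, 52.0 and 55.2 CPM in CTRL and 41.2, 37.2 and 44.0 in 2B17 cells, which adjoined without overlap (-0.30 ± 0.07, adjusted *P* = 0.0018). *MVK*, which phosphorylates mevalonate, and *IDI1*, which isomerizes the isoprenoid unit, passed the test as lower in MEC1 (-0.26 ± 0.06, adjusted *P* = 0.00084, and -0.30 ± 0.05, adjusted *P* = 0.00013). Their log2 fold changes in JVM2 were -0.09 ± 0.08 and -0.07 ± 0.09 (adjusted *P* = 0.45 and 0.57). *PMVK*, the kinase between *MVK* and *MVD*, had 55.6, 54.4 and 58.9 CPM in MEC1-CTRL and 57.6, 54.3 and 62.2 in MEC1-2B17 cells, and 28.5, 28.5 and 30.6 against 26.9, 31.2 and 30.4 in JVM2. Its populations overlapped in both lines, and its log2 fold changes were 0.04 ± 0.05 and 0.01 ± 0.09 (adjusted *P* = 0.53 and 0.92).

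*FDPS* and *FDFT1*, the synthases that lengthen the isoprenoid chain and join it into squalene, were both lower in MEC1. *FDPS* was the enzyme with the highest level per length in both lines. It stood at 369.8, 371 and 368 CPM in MEC1-CTRL and at 263, 236 and 253 in MEC1-2B17 cells, a fall of 32.2% between populations that were far apart (-0.56 ± 0.04, adjusted *P* = 9.6e-10). In JVM2 the same gene stood at 247, 245 and 230.5 CPM in CTRL and 243, 232 and 230.3 in 2B17 cells, which overlapped (-0.03 ± 0.06, adjusted *P* = 0.69). *FDFT1* fell by 20.1% in MEC1, from 224 ± 16.1 to 179 ± 1.63 CPM (mean ± SD, n = 3; -0.32 ± 0.04, adjusted *P* = 7.4e-06). In JVM2 it fell by 15.1%, from 91.0 ± 2.62 to 77.3 ± 2.72 CPM (-0.24 ± 0.06, adjusted *P* = 0.0097), a call lost without replicate 1 of JVM2-2B17 or without replicate 3 of JVM2-CTRL (adjusted *P* up to 0.066). The largest overlap with a single annotated gene on the opposite strand covers 18.6% of the exon bases of *FDPS*, 17.2% of *ACAT2*, 37.7% of *HMGCS1* and 15% of *IDI1*, *ACAT2* has further and smaller overlaps on that strand, and whether counting used strand is not given in the sources used here.

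From squalene to cholesterol, all 10 enzymes were lower in MEC1, while 5 were lower and 1 was higher in JVM2. *LSS*, which cyclizes squalene epoxide to lanosterol, was lower by nearly the same amount in both lines. Its levels were 83.5, 87.1 and 96.4 CPM in MEC1-CTRL and 72.9, 66.3 and 70.2 in MEC1-2B17 cells (-0.35 ± 0.05, adjusted *P* = 1.1e-05), and 70.9, 68.5 and 67.9 against 55.8, 48.6 and 56.5 in JVM2 (-0.36 ± 0.07, adjusted *P* = 0.0022). The difference between the lines in the log2 fold change of *LSS* was 0.02 (95% interval -0.15 to 0.19). *EBP*, the sterol isomerase, stood at 79.9, 80.2 and 88.4 CPM in MEC1-CTRL and 62.0, 58.0 and 61.1 in MEC1-2B17 cells, 27.1% lower (-0.46 ± 0.04, adjusted *P* = 1.1e-07). In JVM2 it stood at 57.8, 56.8 and 55.7 CPM in CTRL and 50.1, 41.2 and 41.5 in 2B17 cells, 22.0% lower and without overlap (-0.35 ± 0.08, adjusted *P* = 0.0067). *DHCR7*, a reductase at the end of the pathway, had the largest fall among the enzymes of JVM2. Its JVM2 levels were 53.5, 54.8 and 57.0 CPM in CTRL and 41.0, 34.1 and 37.1 in 2B17 cells (-0.56 ± 0.08, adjusted *P* = 0.00022), and its MEC1 levels were 71.0, 75.2 and 86.4 against 63.8, 59.3 and 64.0 (-0.31 ± 0.06, adjusted *P* = 0.00018).

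*NSDHL*, a sterol dehydrogenase, fell by 20.5% in JVM2, from 30.8 ± 0.367 to 24.5 ± 1.68 CPM (-0.33 ± 0.08, adjusted *P* = 0.01). In MEC1 it fell by 16.4% (-0.26 ± 0.08, adjusted *P* = 0.013), a call lost without replicate 3 of MEC1-CTRL or without replicate 2 of MEC1-2B17 (adjusted *P* up to 0.087). *SQLE*, the epoxidase that acts on squalene, fell by 19.3% in JVM2, from 102 ± 5.99 to 82.6 ± 1.45 CPM (-0.31 ± 0.06, adjusted *P* = 0.0026). Its MEC1 call was weak, since the populations overlapped at 114, 121 and 143 against 113, 116 and 112 CPM (-0.15 ± 0.06, adjusted *P* = 0.035). It was lost by DESeq2 (adjusted *P* = 0.28) and without replicate 3 of MEC1-CTRL, replicate 1 of MEC1-2B17 or replicate 3 of MEC1-2B17 (adjusted *P* up to 0.3).

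The demethylase *CYP51A1* and the oxidase *MSMO1*, which remove methyl groups from the sterol ring, passed the test in MEC1 and not in JVM2. *CYP51A1* fell from 29.7 ± 2.67 to 23.4 ± 1.97 CPM in MEC1 (-0.35 ± 0.07, adjusted *P* = 0.00044). In JVM2 it stood at 12.3, 11.1 and 12.9 CPM in CTRL and 9.15, 13.4 and 8.26 in 2B17 cells, where replicate 2 lay above every CTRL library (-0.24 ± 0.16, adjusted *P* = 0.3). Without that replicate the JVM2 log2 fold change of *CYP51A1* was -0.46 and passed the test. *MSMO1* fell from 94.7 ± 11.5 to 78.6 ± 1.17 CPM in MEC1 (-0.27 ± 0.06, adjusted *P* = 0.001), with -0.06 ± 0.09 in JVM2 (adjusted *P* = 0.62). *SC5D*, a sterol desaturase, was lower in MEC1 (-0.21 ± 0.06, adjusted *P* = 0.0059), with 0.01 ± 0.11 in JVM2 (adjusted *P* = 0.94). *HSD17B7*, a ketoreductase of the same section, was lower in MEC1 at -0.17 ± 0.06 (adjusted *P* = 0.03), with -0.11 ± 0.13 in JVM2 (adjusted *P* = 0.55). Its MEC1 call was lost by DESeq2 (adjusted *P* = 0.089) and in 4 of 6 fits that left out 1 library, namely replicates 2 and 3 of each population (adjusted *P* up to 0.13). The pseudogene *HSD17B7P2* shares 13.6% of its 50-base words and had 1368 counts in MEC1 against 4100 for the gene, so reads of the pair may have been divided between them.

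*TM7SF2*, a sterol reductase, was the enzyme whose direction differed between the lines. It stood at 25.4, 26.6 and 27.4 CPM in MEC1-CTRL and at 18.6, 15.4 and 17.5 in MEC1-2B17 cells (-0.62 ± 0.06, adjusted *P* = 2.5e-07). In JVM2 it stood at 13.6, 13.1 and 12.3 CPM in CTRL and at 18.5, 13.96 and 17.8 in 2B17 cells (0.37 ± 0.12, adjusted *P* = 0.037). All MEC1-2B17 libraries were below and all JVM2-2B17 libraries above their controls. The JVM2 rise was not called by DESeq2 (adjusted *P* = 0.1) nor in 5 of 6 fits that left out 1 library, all but the one without replicate 2 of JVM2-2B17 (adjusted *P* up to 0.14), whereas the MEC1 fall was called in 6 of 6.

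The 3 MEC1-CTRL libraries differed among themselves in these genes. Replicate 3 was the highest of the 3 in 17 of the 18 enzymes (94.4%), against 36.7% of all genes tested, and replicate 1 was the lowest in 15 (83.3%), against 35% of all genes. The median deviation of the enzymes from the MEC1-CTRL mean was 0.12 on the log2 scale in replicate 3 and -0.10 in replicate 1. In MEC1-2B17, replicate 2 was the lowest of the 3 in 12 of the 18 enzymes (66.7%), against 35.2% of all genes. Without that replicate 15 enzymes were lower in MEC1-2B17 cells, where 18.8% of all genes were, and their median over the 18 was -0.27. No JVM2 library stood highest in more than 8 of the 18 enzymes. Without replicate 3 of MEC1-CTRL, 14 of the 18 enzymes were still lower in MEC1-2B17 cells, where 20.3% of all genes were lower. In that fit 20 of the 32 genes were lower and none was higher, and the median over the enzymes was -0.23. The 3 enzymes that lost their call were *SQLE*, *NSDHL* and *HSD17B7*. The MEC1 log2 fold changes of *SQLE*, *NSDHL* and *MSMO1* were then -0.05, -0.15 and -0.17.

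**Figure D2:**
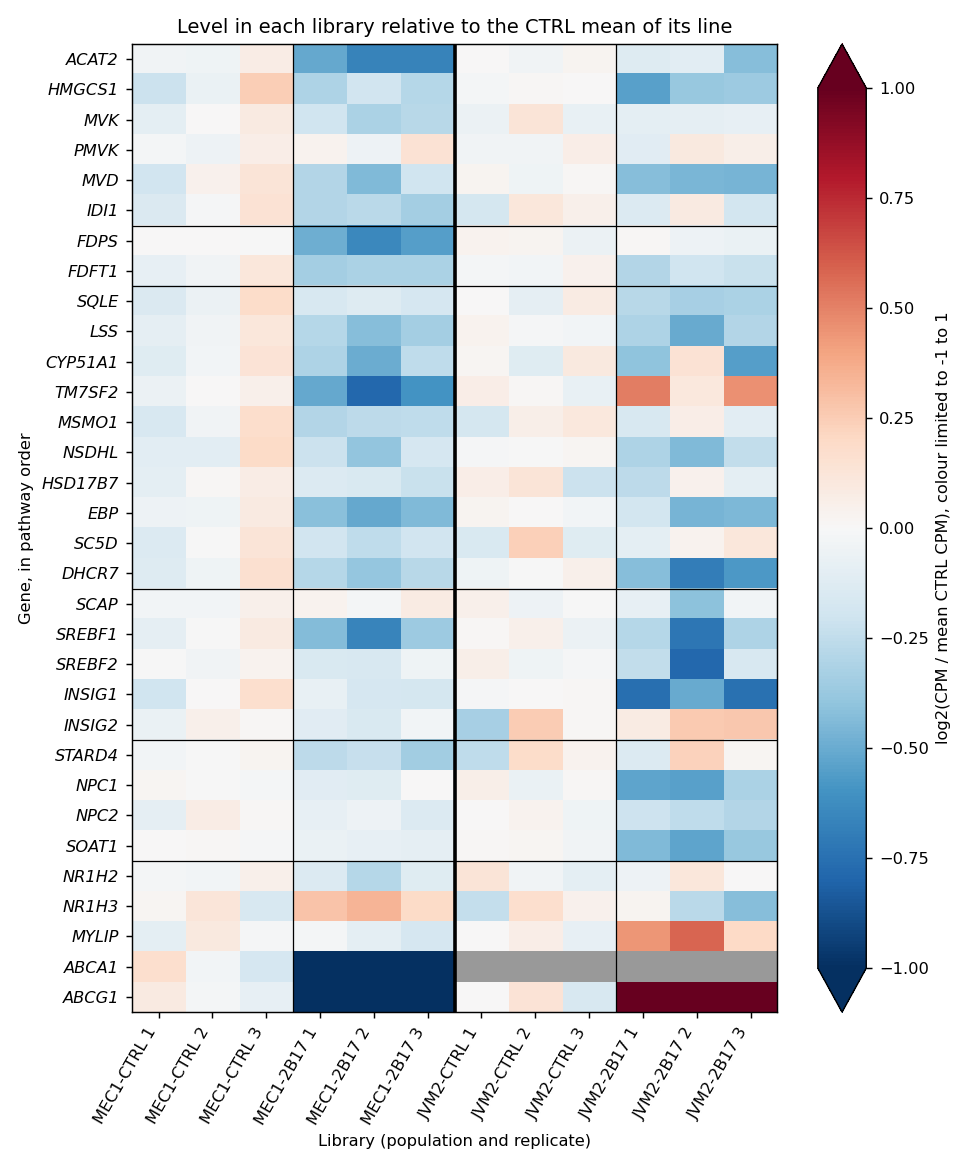
Level of each of the 32 genes (rows, in pathway order) in each of the 12 libraries (columns), as the log2 ratio of its CPM to the mean CPM of the CTRL libraries of the same line, with blue lower, red higher and grey not in the table. Most enzymes at the top are blue in all 3 MEC1-2B17 libraries, *PMVK* being an exception, and tinted red in replicate 3 of MEC1-CTRL, JVM2-2B17 libraries are blue in fewer rows, and *ABCG1* in the bottom row is blue in MEC1-2B17 and red in JVM2-2B17.

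Among the regulators of SREBP, 2 of 5 were lower in MEC1 and 3 of 5 in JVM2. *SREBF1*, which encodes an SREBP that acts on fatty acid and sterol genes, was lower in both lines. It stood at 40.0, 42.4 and 45.3 CPM in MEC1-CTRL and 31.4, 27.0 and 33.1 in MEC1-2B17 cells (-0.48 ± 0.07, adjusted *P* = 7.5e-06), and at 71.0, 72.9 and 67.8 against 58.0, 42.8 and 57.0 in JVM2 (-0.42 ± 0.10, adjusted *P* = 0.0069). The populations did not overlap in either line, and replicate 2 of JVM2-2B17 was the lowest. *SREBF2*, which encodes the SREBP best known for sterol genes, was 7.74% lower in MEC1, at 207, 203 and 213 CPM in CTRL and 186, 186 and 202 in 2B17 cells (-0.12 ± 0.04, adjusted *P* = 0.023). In JVM2 it stood at 165, 153 and 157 CPM in CTRL and 134, 92.1 and 142 in 2B17 cells (-0.37 ± 0.12, adjusted *P* = 0.039). Here too replicate 2 of JVM2-2B17 lay far below the other 2B17 libraries, and without it the log2 fold change of *SREBF2* was -0.20 (adjusted *P* = 0.0074). The JVM2 call was lost by DESeq2 (adjusted *P* = 0.2) and when any JVM2-CTRL library was left out (adjusted *P* up to 0.12). The MEC1 call was lost when replicate 1 or 2 of MEC1-2B17 was left out (adjusted *P* up to 0.11). It was also lost when both tools were required (edgeR exact test, adjusted *P* = 0.056).

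*INSIG1*, a retention protein of the SREBPs and itself a well known SREBP target, showed the largest fall of any of these genes in JVM2. It stood at 162, 164 and 165 CPM in JVM2-CTRL and 97.2, 116 and 97.9 in JVM2-2B17 cells, 36.7% lower (-0.66 ± 0.07, adjusted *P* = 2.2e-05). In MEC1 it stood at 104, 120.0 and 135 CPM in CTRL and 114, 107 and 106 in 2B17 cells, which overlapped (-0.14 ± 0.06, adjusted *P* = 0.08). The JVM2 fall was larger than the spread between replicates, and the difference between the lines is given below. *INSIG2*, the related retention protein, gave log2 values of -0.10 ± 0.06 for MEC1 and 0.20 ± 0.13 for JVM2 (adjusted *P* = 0.2 and 0.28). *SCAP*, the escort of the SREBPs, had 0.03 ± 0.04 and -0.16 ± 0.09 (adjusted *P* = 0.56 and 0.19), with the lowest JVM2 level, 65.4 CPM, again in replicate 2 of JVM2-2B17 cells.

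The genes of sterol transport and esterification passed the test in different lines. *STARD4*, a soluble sterol carrier, stood at 128, 130 and 133 CPM in MEC1-CTRL and 108, 111 and 102 in MEC1-2B17 cells (-0.28 ± 0.04, adjusted *P* = 3.2e-06), with 0.04 ± 0.11 in JVM2 (adjusted *P* = 0.81). *NPC1* and *NPC2*, the pair of lysosomal proteins that release cholesterol taken up with lipoproteins, and *SOAT1*, which esterifies cholesterol for storage, were lower in JVM2. *NPC1* stood at 41.7, 38.2 and 40.4 CPM in JVM2-CTRL and 27.9, 27.6 and 32.2 in JVM2-2B17 cells, 27.1% lower without overlap (-0.46 ± 0.08, adjusted *P* = 0.0015). *SOAT1* stood at 66.6, 66.7 and 64.4 CPM in JVM2-CTRL and 48.6, 45.7 and 50.8 in JVM2-2B17 cells, 26.6% lower (-0.45 ± 0.07, adjusted *P* = 0.0003). *NPC2* fell by 16.1% (-0.25 ± 0.07, adjusted *P* = 0.017), a call lost by DESeq2 (adjusted *P* = 0.082) and without replicate 3 of JVM2-2B17 or replicate 2 of JVM2-CTRL (adjusted *P* up to 0.075). In MEC1 the log2 fold changes of *NPC1*, *NPC2* and *SOAT1* were between -0.08 and -0.09, and none passed the test (adjusted *P* = 0.22, 0.29 and 0.051). The MEC1 levels of *SOAT1* did not overlap, at 143 to 145 CPM in CTRL and 135 to 138 in 2B17 cells, and the gene passed when only library size was used for scaling (adjusted *P* = 0.028) or when at least 10 counts were required in every library (adjusted *P* = 0.044).

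The LXR branch held the largest changes of all 32 genes, in the exporters. *ABCG1* stood at 67.5, 62.6 and 59.9 CPM in MEC1-CTRL and 17.7, 17.8 and 18.0 in MEC1-2B17 cells, 3.55-fold lower (-1.83 ± 0.05, adjusted *P* = 6.9e-15). In JVM2 it stood at 11.8, 12.9 and 10.5 CPM in CTRL and 29.9, 31.0 and 26.1 in 2B17 cells, 2.48-fold higher (1.30 ± 0.11, adjusted *P* = 2.2e-06). The direction was thus opposite between the lines, with no overlap in either, and both calls held in 6 of 6 fits that left out 1 library and by DESeq2 (adjusted *P* = 8.8e-172 and 6.7e-17). The MEC1-CTRL level per kilobase of exon was 10.3 CPM, against 1.91 in JVM2-CTRL, and the levels in 2B17 cells were 2.91 and 4.74. *ABCG1* lies on the plus strand of chromosome 21, from 42199689 to 42297244 (GRCh38).

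*ABCA1* had 963, 761 and 665 counts in MEC1-CTRL and 85, 54 and 41 in MEC1-2B17 libraries, which is 25.3, 22.1 and 20.0 CPM against 2.52, 1.65 and 1.29. The level was 12.3-fold lower in MEC1-2B17 cells (-3.62 ± 0.14, adjusted *P* = 2.9e-13), the widest separation of any gene examined here. The JVM2 table lists no gene with fewer than 10 counts over its 6 libraries and does not list *ABCA1*, so no JVM2 level is given. *ABCA1* lies on chromosome 9 from 104781006 to 104928155 (minus strand), and it was the only member on that chromosome. Of the 471 genes tested in MEC1 from 60 Mb to the end of chromosome 9, 71.5% were lower in MEC1-2B17 cells, against 21.6% of all genes tested, with a median log2 fold change of -0.39. In JVM2 the 360 genes tested there had a median of 0.0049 and 10.6% of them were lower. *ABCA1* had the lowest log2 fold change of the 471, and its 10 nearest tested neighbours had a median of -0.32, with a range of -1.10 to 0.51. The part that this region has in the level of *ABCA1* was not tested.

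*MYLIP*, the ubiquitin ligase of the LXR branch, stood at 12.9, 13.4 and 12.1 CPM in JVM2-CTRL and 17.4, 19.1 and 14.7 in JVM2-2B17 cells, 33.5% higher (0.42 ± 0.12, adjusted *P* = 0.018). The call was lost by DESeq2 (adjusted *P* = 0.052) and without replicate 1 of JVM2-2B17 or replicate 1 or 3 of JVM2-CTRL (adjusted *P* up to 0.073). In MEC1 the log2 fold change of *MYLIP* was -0.09 ± 0.06 (adjusted *P* = 0.22). *NR1H3*, which encodes LXR alpha, was the 1 gene of the 32 that was higher in MEC1, at 8.39, 9.01 and 7.41 CPM in CTRL and 10.1, 10.4 and 9.43 in 2B17 cells (0.27 ± 0.08, adjusted *P* = 0.015). The call was lost without replicate 3 of MEC1-CTRL (adjusted *P* = 0.074). Its JVM2 level was low, 1.92 to 2.89 CPM over the 6 libraries, and did not pass the test (-0.19 ± 0.23, adjusted *P* = 0.58). *NR1H2*, which encodes LXR beta, was lower in MEC1 (-0.18 ± 0.05, adjusted *P* = 0.0086), a call lost without replicate 2 of MEC1-2B17 (adjusted *P* = 0.073), with 0.02 ± 0.08 in JVM2 (adjusted *P* = 0.86). The protein-coding gene *NAPSA* overlaps 22.1% of the exon bases of *NR1H2* on the opposite strand.

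**Figure D3:**
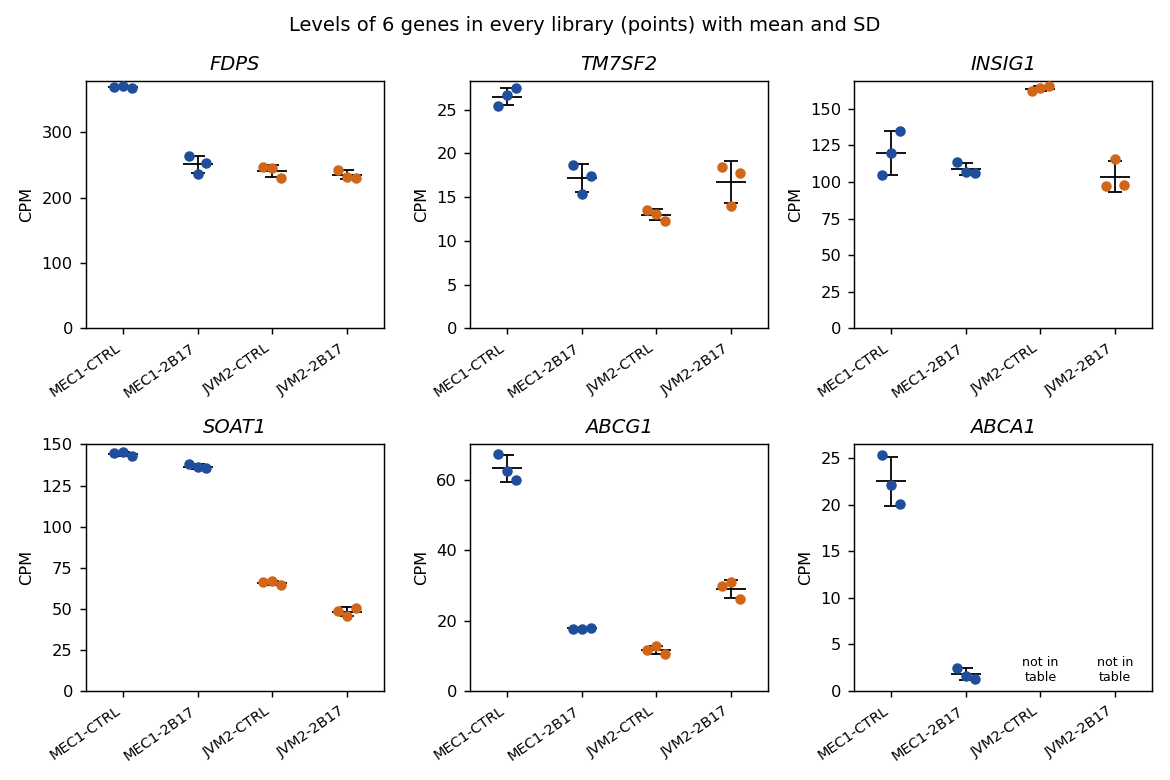
Levels of *FDPS*, *TM7SF2*, *INSIG1*, *SOAT1*, *ABCG1* and *ABCA1* in CPM (vertical axes, starting at 0) in each library of the 4 populations, with points for the 3 replicates, a horizontal bar for their mean and whiskers for the SD. *ABCG1* falls from 63.3 to 17.8 CPM in MEC1 and rises from 11.7 to 29.0 in JVM2, *TM7SF2* also moves in opposite directions, *FDPS* is lower in MEC1-2B17 and overlaps in JVM2, *INSIG1* and *SOAT1* fall further in JVM2-2B17, and *ABCA1* is not in the JVM2 table.

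The difference between the lines was tested for each gene by the interaction of line and population in 1 fit of all 12 libraries. It passed the test in 8 of 31 genes, where 32% of the 15130 genes tested did so. The fold change was lower in MEC1 for *ABCG1* (difference -3.13, 95% interval -3.36 to -2.90), *TM7SF2* (-0.99, -1.26 to -0.73), *FDPS* (-0.52, -0.66 to -0.39), *MYLIP* (-0.50, -0.76 to -0.25) and *ACAT2* (-0.40, -0.60 to -0.21). In the other direction it was lower in JVM2 for *INSIG1* (0.53, 0.32 to 0.74), *NPC1* (0.39, 0.21 to 0.57) and *SOAT1* (0.37, 0.24 to 0.51). The enzymes among these were *ACAT2*, *FDPS* and *TM7SF2*. For the other 15 enzymes no difference between the lines was shown, with intervals that reached from -0.47 in *SC5D* to 0.45 in *DHCR7*. A gene such as *IDI1*, which passed in MEC1 and not in JVM2, is therefore not shown to differ between them (-0.22, 95% interval -0.44 to 0.0038, adjusted *P* = 0.15).

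**Figure D4:**
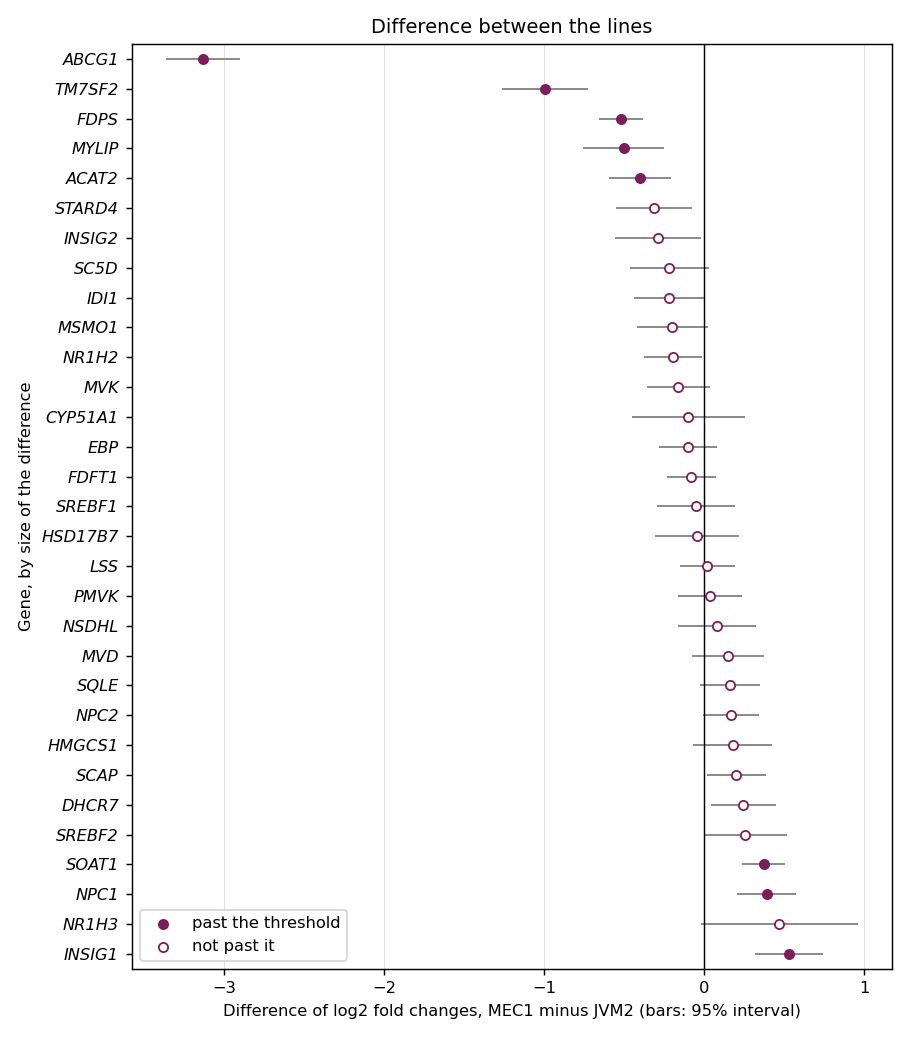
Difference between the lines in the log2 fold change of 2B17 over CTRL, MEC1 minus JVM2 (horizontal axis), for the 31 genes tested in both lines, ordered by size, with bars for the 95% interval. Filled points are the 8 genes past the threshold; *ABCG1* lies farthest left at -3.13 and *INSIG1* farthest right at 0.53, and the intervals of most other genes cross 0.

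Levels per length give the order of these genes within a line. Per kilobase of exon, *FDPS* stood highest in MEC1-CTRL at 99.4 CPM, followed by *PMVK* (56.2), *EBP* (46.9), *FDFT1* (44.0) and *IDI1* (39.7). JVM2-CTRL also had *FDPS* highest (64.7), followed by *INSIG1* (44.9), *EBP* (32.1), *PMVK* (29.1) and *SQLE* (23.8). *NR1H3* was the lowest in both, at 1.82 and 0.569 CPM per kilobase, and *ABCA1* in MEC1 (1.98) and *ABCG1* in JVM2 (1.91) stood next to it. The exon lengths are unions over all annotated transcripts, so the order depends on the annotation.

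Of 54 further genes of the isoprenoid branch, SREBP processing, lipoprotein uptake, sterol transport and oxysterols, 49 were tested in MEC1, of which 12 were higher and 13 lower, with a median log2 fold change of 0.007, against 20.0% higher and 21.6% lower among all genes. In JVM2 48 were tested, of which 5 were higher and 16 lower, with a median of -0.16, against 14.1% and 15.3% of all genes. The 16 became 9 without replicate 1 of JVM2-2B17 and 9 without replicate 3 of JVM2-CTRL, and the 5 became 3 without the latter. The largest falls in MEC1 were in *VLDLR*, a lipoprotein receptor, from 10.5 ± 1.27 to 4.48 ± 0.108 CPM (-1.24 ± 0.10, adjusted *P* = 7.8e-09), and in *ACSS2*, which makes acetyl-CoA from acetate, from 14.8 ± 1.24 to 7.25 ± 0.501 (-1.03 ± 0.08, adjusted *P* = 6.4e-09). The largest rises there were in *GRAMD1B*, a carrier of plasma membrane cholesterol, from 30.1 ± 2.32 to 56.8 ± 0.939 CPM (0.91 ± 0.05, adjusted *P* = 7e-11), and *STARD5*, a sterol carrier (0.45 ± 0.09, adjusted *P* = 0.00036). *COQ2* and *STARD3NL* rose most in JVM2. *COQ2*, an enzyme of ubiquinone synthesis, went from 21.5 ± 0.159 to 33.8 ± 2.55 CPM (0.65 ± 0.09, adjusted *P* = 0.00011), and *STARD3NL*, a late endosomal protein, from 61.5 ± 1.63 to 86.0 ± 4.88 (0.48 ± 0.06, adjusted *P* = 0.00012).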

How the data were processed

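Ribosomal RNA was depleted and libraries were sequenced with paired ends at 2 sites, per the methods; the site of each sample is not given in the sources used here. The submitters' processing notes name Trimmomatic, TopHat2 2.0.14, HTSeq and hg38. The authors deposited raw read counts per Ensembl gene in 1 table for each line, without normalization, which alone were used. Their 12 columns of normalized values, fold changes and *P*-values were not used. Samples were grouped by their labels, 3 libraries a population. Each whole table was fitted with edgeR 4.0.16 (R 4.3.3), with TMM scaling, filterByExpr (minimum count 10) and the quasi-likelihood F-test, and *P*-values were adjusted by Benjamini-Hochberg over 16581 genes in MEC1 and 13021 in JVM2. Levels are CPM, counts per 1000000 of the TMM-scaled library. Positions follow GENCODE release 44. On simulated data 1.3-fold changes were called in 87 of 100 genes in MEC1 and 55 of 100 in JVM2, and 2-fold changes in 98 and 100. The simulation gave every gene of a line the same dispersion and changed only well counted genes. They were far fewer than the genes that passed in the data, so these rates need not hold for the data. Alternatives were DESeq2 1.42.0, calls by both tools, scaling by RLE or by library size, no filter or a minimum of 10 counts per library, a replicate block, and each library left out. All 32 genes were named, with *UGT2B17* and, of the further pathway genes, the 2 largest changes in each direction and line among those called at an average log2 CPM of at least 1; some of the latter are not reported here. The genes, lists and motifs were chosen with earlier results of these data known.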

Additional observations from a re-analysis of the deposited data

Results flagged for a closer look

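In 8 of the 31 genes with a test in each line, the change between 2B17 and CTRL cells differed between MEC1 and JVM2 by the interaction of line and population (edgeR quasi-likelihood test, adjusted over 15130 genes, of which 32% passed). The log2 fold change in MEC1 minus that in JVM2 was -3.13 for *ABCG1* (adjusted *P* = 5.3e-14), -0.99 for *TM7SF2* (9.8e-06), -0.52 for *FDPS* (6.6e-06), -0.50 for *MYLIP* (0.005) and -0.40 for *ACAT2* (0.0039). It was 0.53 for *INSIG1* (0.00076), 0.39 for *NPC1* (0.0031) and 0.37 for *SOAT1* (0.00031). All 8 passed in 12 of 12 fits that left out 1 library. The controls of the lines were made with different constructs and antibiotics, which cannot be told apart from the lines in this comparison. Populations had 3 replicates, too few for a test of single outlying samples.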

How the results depend on the processing

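With all libraries kept, every count over the 32 genes stayed within 1.5 times its reported value, except that DESeq2, alone or required beside edgeR, left 1 gene higher in JVM2 and 1 in opposite directions (*ABCG1* in each), and that the replicate block gave 13 genes differing between the lines. Same-numbered libraries of the 2 populations deviated together with r of -0.0422, -0.00675 and 0.04 in MEC1 and 0.0857, 0.117 and -0.00594 in JVM2, so the number was not taken as a pairing. With the replicate block *INSIG1* passed in MEC1 (adjusted *P* = 0.048), and *DHCR7*, *SCAP*, *SREBF2*, *INSIG2* and *STARD4* passed for the difference (adjusted *P* = 0.044, 0.041, 0.039, 0.041 and 0.0018). *STARD4* also passed for the difference with RLE scaling (adjusted *P* = 0.049).

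Over the fits without 1 library, the counts were 19 to 24 lower and 0 to 1 higher in MEC1, 12 to 16 lower and 1 to 3 higher in JVM2, 8 to 12 lower in both, 0 to 0 higher in both, 1 to 2 in opposite directions and 8 to 11 differing between the lines. Of all genes, 18.3% to 20.3% were lower in these MEC1 fits and 10.6% to 17.8% in the JVM2 fits. Of the further pathway genes 11 to 15 were higher and 12 to 15 lower in MEC1, and 3 to 7 were higher and 9 to 18 lower in JVM2; the lowest of these JVM2 counts came without replicate 3 of JVM2-CTRL (3 and 9) and replicate 1 of JVM2-2B17 (9). Log2 fold changes that changed sign in such fits had not passed the test. They ranged from -0.0019 to 0.0943 for *PMVK* in MEC1, and in JVM2 from -0.0287 to 0.0809 for *PMVK*, -0.0677 to 0.1449 for *STARD4*, -0.0253 to 0.0917 for *NR1H2* and -0.0565 to 0.1513 for *SC5D*. Differences between the lines that changed sign ranged from -0.0426 to 0.0822 for *PMVK*, -0.1746 to 0.0246 for *SREBF1*, -0.0389 to 0.0765 for *LSS*, -0.2276 to 0.126 for *CYP51A1* and -0.1398 to 0.0443 for *HSD17B7*. The causes were not tested. JVM2 libraries had fewer counts, and 55 of 100 simulated 1.3-fold changes were called there, in a simulation with far fewer changed genes than the data.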
